A study of Mus musculus with 10 samples.

Results

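The Serpina genes encode clade A serpins, a family of mostly serine protease inhibitors, many of which hepatocytes secrete into plasma in large amounts. The 10 rows of the gene count table whose symbols are Serpina1a, Serpina1b, Serpina1c, Serpina1d, Serpina1e, Serpina3g, Serpina3k, Serpina3m, Serpina3n and Serpina6 were taken, of 55291 rows in all, and all 10 passed the filter on low counts. Bulk liver RNA was sequenced from 10 female Cas9 Lox-Stop-Lox mice, 16 to 20 weeks old. Every mouse received an AAV8 virus that carries a guide RNA under the U6 promoter and Cre under the hepatocyte-specific TBG promoter, so Cas9 and Cre were present in the controls too. The guide was non-targeting (NTC) or directed against Bap1 (sgBap1), and at day 10 the mice were given carbon tetrachloride (CCl4), a hepatotoxin, or its olive oil vehicle (Veh). Livers were harvested 48 h later, giving 2 livers in each vehicle group (NTC-Veh, sgBap1-Veh) and 3 in each CCl4 group (NTC-CCl4, sgBap1-CCl4). The vector edits hepatocytes and the RNA comes from whole tissue, so fewer cells of a type and less RNA per cell cannot be told apart.

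A serpin holds a flexible reactive centre loop out to its target protease, is cleaved there, and traps the enzyme in a covalent complex. The mouse Serpina1 copies correspond to human alpha-1-antitrypsin, the main plasma inhibitor of neutrophil elastase, and the Serpina3 copies to alpha-1-antichymotrypsin, which belongs to the acute-phase proteins of the liver. Serpina6, corticosteroid-binding globulin, kept the serpin fold but carries cortisol or corticosterone in plasma in place of inhibiting a protease.

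Total estimated counts were 3.30e+07 to 5.22e+07 per liver, and 3 counts corresponded to 0.0511 to 0.112 CPM, the usual unit of counts scaled to a common total, here with TMM factors. With the non-targeting guide Bap1 was at 34.8 CPM in both vehicle livers and at 29.5 to 31.5 after CCl4. With the Bap1 guide it was at 17.5 to 19.5 and at 17.0 to 21.8 CPM. It was lower with sgBap1 under vehicle (log2 fold change -0.91, SE 0.12, adjusted p = 0.0208) and under CCl4 (-0.65, SE 0.10, adjusted p = 0.0295, edgeR's quasi-likelihood test with Benjamini-Hochberg adjustment, as for all adjusted p-values below unless another tool is named). The hepatocyte markers Alb, Cps1, Hnf4a, Ttr, Asgr1 and Serpinc1 were present in every liver. The sgBap1-CCl4 replicate 2 liver stood apart in its fat cell markers, with Adipoq at 36.4 CPM, Plin1 at 34.5 and Cfd at 144, against at most 0.0425, 0.0188 and 0 in the 9 others. It was also the lowest of its group for 8 of the 10 Serpina genes described here, and leaving it out changed the call of 1 of the 10, Serpina3m with CCl4 in sgBap1 mice. TMM factors were 0.786 to 0.851 in vehicle livers and 1.08 to 1.24 in CCl4 livers. Scaling by library size alone moved the median change over all genes (log2) from 0.03 to 0.50 for CCl4 in NTC mice and from 0.04 to 0.52 in sgBap1 mice.

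All 10 genes lie on chromosome 12 (GRCm38) in the serpin cluster. On the minus strand lie Serpina6 (chr12:103646630-103657212), Serpina1d (chr12:103763594-103773592), Serpina1a (chr12:103853589-103863562), Serpina1c (chr12:103894926-103904887), Serpina1e (chr12:103946931-103958975) and Serpina1b, whose annotated span (chr12:103728156-103830373) takes in that of Serpina1d. The Serpina3 genes follow on the plus strand, Serpina3g (chr12:104236245-104241939), Serpina3k (chr12:104338486-104346144), Serpina3m (chr12:104338486-104394257, a span that overlaps Serpina3k) and Serpina3n (chr12:104406729-104414329). Serpina1c also overlaps B430119L08Rik on the opposite strand, and a stranded kit was used. The principal transcript of each gene has 5 exons.

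The Serpina1 copies are almost the same sequence. Their coding sequences of 1242 bases were 96.3% to 98.5% identical in pairs, highest between Serpina1a and Serpina1c, and 86 of the 1242 positions differed among the 5 copies. Differences were densest in 60 bases near the 3′ end of the coding sequence (positions 1101 to 1160), of which 18 varied. This end of the gene encodes the reactive centre loop, the part that selects the protease. These stretches are shown because they hold the densest differences between the copies, and capitals mark bases that differ from the most common base at that position among the copies, or every base at a position where the most common bases tie (GENCODE vM21 transcripts, sense strand).
Serpina1a: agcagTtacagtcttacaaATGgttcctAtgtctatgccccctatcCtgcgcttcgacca
Serpina1b: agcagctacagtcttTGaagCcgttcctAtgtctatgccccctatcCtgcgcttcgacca
Serpina1c: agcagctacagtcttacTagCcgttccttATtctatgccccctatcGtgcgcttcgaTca
Serpina1d: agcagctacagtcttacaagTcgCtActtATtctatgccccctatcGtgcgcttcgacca
Serpina1e: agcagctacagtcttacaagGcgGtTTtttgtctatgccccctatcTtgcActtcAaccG
Serpina1e differed most from the others, at 8 of the 60 bases, and Serpina1b at 5.

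The Serpina3 genes are further apart. Their coding sequences were 80% to 91.3% identical in pairs, highest between Serpina3k and Serpina3m, and the most variable 60-base window with no gap in any copy held 29 varying positions. It lies in the same region of the protein, shown with capitals as above.
Serpina3g: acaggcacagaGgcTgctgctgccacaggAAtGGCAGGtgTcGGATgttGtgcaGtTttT
Serpina3k: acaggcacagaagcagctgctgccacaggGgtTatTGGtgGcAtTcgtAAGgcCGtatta
Serpina3m: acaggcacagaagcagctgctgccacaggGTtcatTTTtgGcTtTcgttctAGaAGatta
Serpina3n: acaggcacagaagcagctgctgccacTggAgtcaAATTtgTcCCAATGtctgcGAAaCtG
The first bases of each line are common to the 4 genes, apart from Serpina3g, and most differences stand toward the 3′ end. Serpina6 was 51.8% to 54.7% identical to the other 9 in its coding sequence.

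This likeness limits how far counts can be assigned to a copy. Of all 50-base stretches of a gene's transcripts, as long as the sequenced reads, 74.2% of Serpina1c occurred in another gene, mostly Serpina1a. The share was 57.6% for Serpina1a, 50.9% for Serpina1d, 34.6% for Serpina1e and 29.5% for Serpina1b. It was 19.1% for Serpina3m, 15.5% for Serpina3g, 14% for Serpina3k and 6.9% for Serpina3n, and 0% for Serpina6. Salmon divides such reads by estimate, so the values of single Serpina1 copies are uncertain in a way that their sum and Serpina6 are not.

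**Figure D1:**
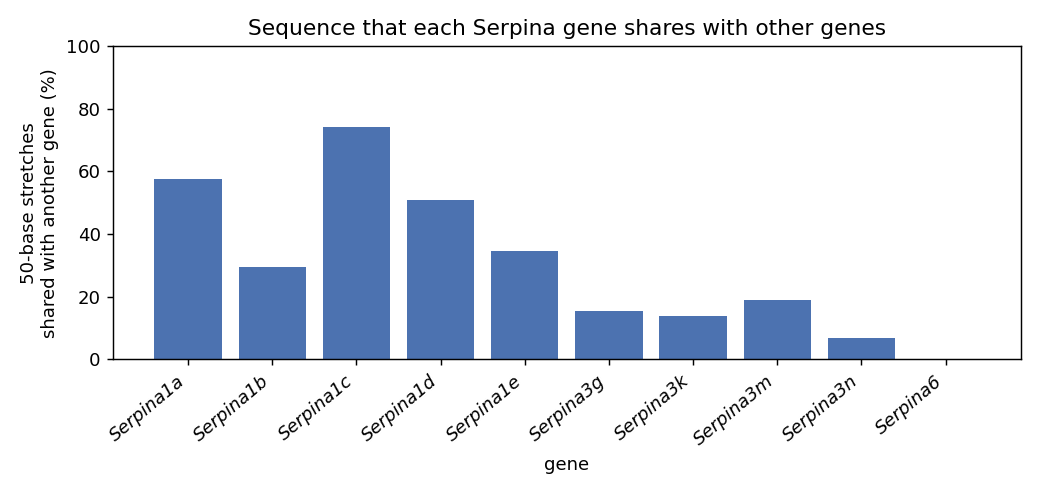
Percentage of the 50-base stretches in each gene's annotated transcripts that also occur in another gene, one bar per Serpina gene. The bars reach 74.2% for Serpina1c and 0% for Serpina6.

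The promoter sequences that RefSeq gives for the Serpina1 copies were also nearly the same. RefSeq (GRCm38.p6) had a promoter entry for 7 of the 10 genes, not for Serpina3k, Serpina3m and Serpina6. In a stretch of 100 bases common to the 5 Serpina1 promoters, 90 positions were identical in all copies. For Serpina1b and Serpina1e this stretch lies inside the annotated gene span given above, not upstream of it. Serpina1a (chr12:103863621-103863720), Serpina1d (chr12:103773630-103773729) and Serpina1e (chr12:103956956-103957055), all on the minus strand, are shown because their counts moved differently in the livers, and capitals mark bases that differ from the commonest base among the 5 copies.
Serpina1a: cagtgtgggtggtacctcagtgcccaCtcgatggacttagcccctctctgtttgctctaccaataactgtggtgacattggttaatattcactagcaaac
Serpina1d: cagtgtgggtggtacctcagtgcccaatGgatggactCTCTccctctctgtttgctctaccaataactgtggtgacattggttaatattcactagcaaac
Serpina1e: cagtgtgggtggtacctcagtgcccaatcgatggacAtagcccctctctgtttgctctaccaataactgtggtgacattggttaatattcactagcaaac
The letters GTTAAT, part of the site bound by the liver factor HNF1, stood in all 5 Serpina1 promoters and in 7.1% of 32851 promoters of the same length (300 bases, both strands). TTGCNNAA, a C/EBP motif, stood in Serpina1a, Serpina1b, Serpina1d and Serpina1e and in 10.8% of all promoters. AGAACA, part of the site bound by the glucocorticoid receptor, stood in the 5 Serpina1 promoters and Serpina3n and in 19% of all. TTCNNNGAA, a STAT motif, was found in Serpina3g alone of the 7 and in 8.3% of all, and TATAAA in none of the 7 and in 13.6% of all. A match is a description of letters, not a site shown to be bound.

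Together the 10 genes took 2.14% to 3.43% of all counts in a liver, and the Serpina1 copies 1.42% to 2.25%. Per kilobase of the principal transcript, the order of mean levels in NTC-Veh livers was Serpina1b (5775 CPM per kb), Serpina3k (5242), Serpina1c (4892), Serpina1a (4600), Serpina1d (3351), Serpina3n (459), Serpina1e (345), Serpina3m (340), Serpina6 (286) and Serpina3g (5.53). Livers of neighbouring genes overlapped from Serpina1b to Serpina1a and from Serpina3n to Serpina3m, and stood apart at the other steps. In NTC-CCl4 livers Serpina3k was first (3456 CPM per kb), Serpina1e was level with Serpina1d (870 and 934, livers overlapping), and Serpina6 was level with Serpina3g (9.42 and 9.08, livers overlapping). In sgBap1-CCl4 livers the first 4 were Serpina3k, Serpina1b, Serpina1c and Serpina1a, each overlapping the next.

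**Figure D2:**
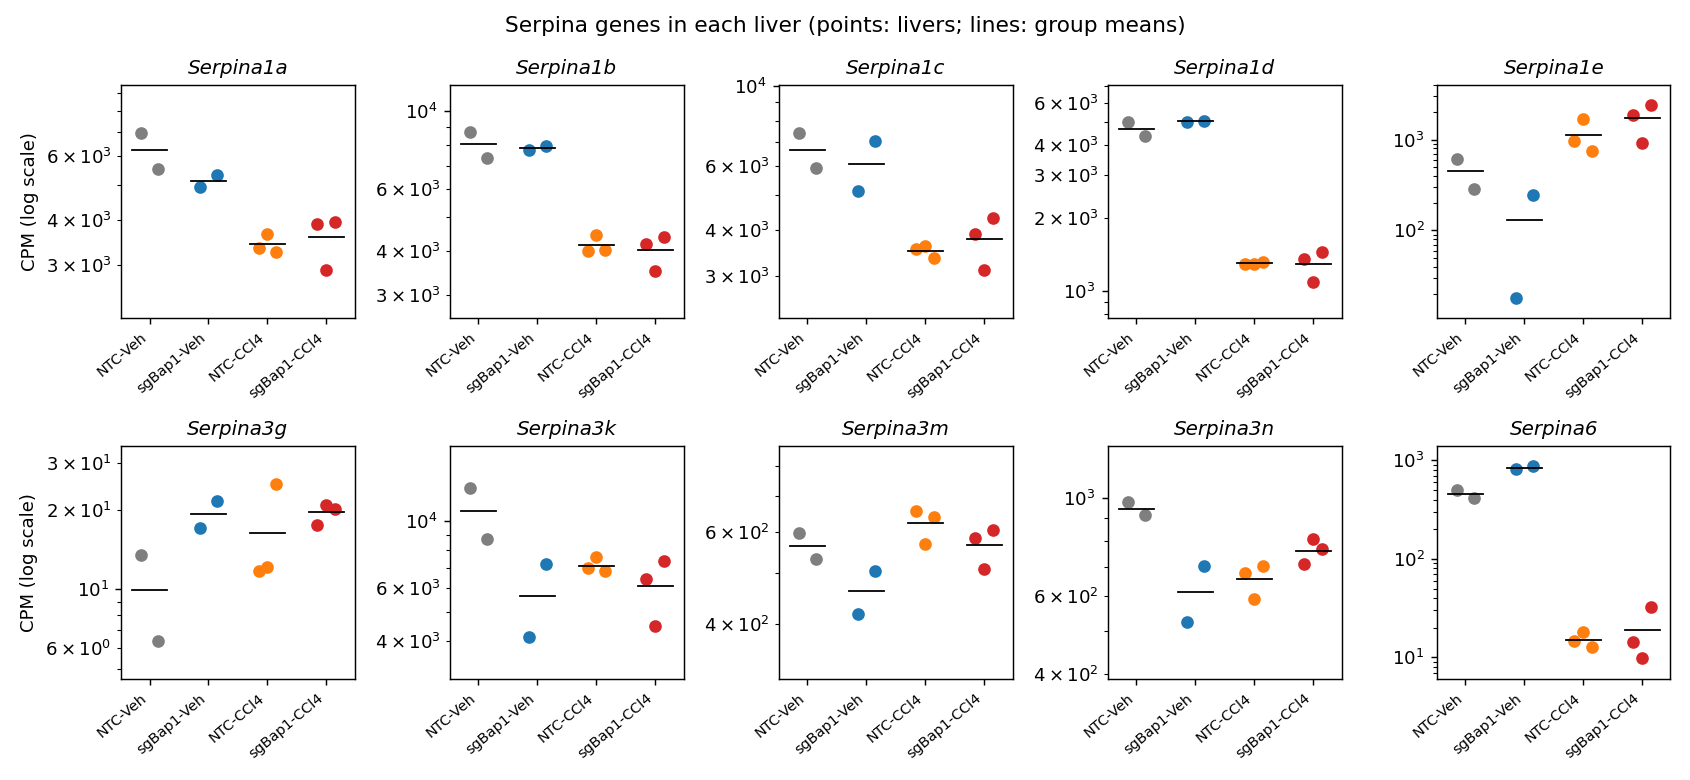
TMM-scaled CPM of the 10 Serpina genes in each liver (log scale, a separate range for each gene), with points for livers and lines for group means. Serpina6 lies between 420 and 867 CPM in the 4 vehicle livers and between 9.89 and 32.4 in the 6 CCl4 livers, Serpina1a to Serpina1d are lower with CCl4, and Serpina1e is higher.

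In NTC mice, 6 of the 10 genes fell with CCl4 and 0 rose. Serpina6 fell most, followed by Serpina1d, the 3 copies Serpina1a, Serpina1b and Serpina1c, and Serpina3n. Over all 17015 tested genes, 53.9% changed in this comparison, 26.6% lower and 27.4% higher, so a call is common here. The livers of the 2 groups did not overlap for 8 of the 10 genes and for 71.7% of all tested genes. The median log2 fold change was -0.74 over the 10 genes and 0.03 over all tested genes. With scaling by library size alone, 5 fell (Serpina1a to Serpina1d and Serpina6) and 2 rose (Serpina3g and Serpina3m). Under that scaling 10561 of all 17015 tested genes were called, 8500 of them higher.

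In sgBap1 mice, 5 fell with CCl4 (Serpina1a to Serpina1d and Serpina6) and Serpina1e rose. Of all tested genes 57% changed, 28% lower and 29% higher. Livers did not overlap for 8 of the 10 and for 72.2% of all tested genes. The median was -0.25 over the 10 genes and 0.04 over all. With scaling by library size alone, 3 fell (Serpina1b, Serpina1d and Serpina6) and 3 rose (Serpina1e, Serpina3m and Serpina3n). Under that scaling 11002 of all 17015 tested genes were called, 8614 of them higher.

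**Figure D3:**
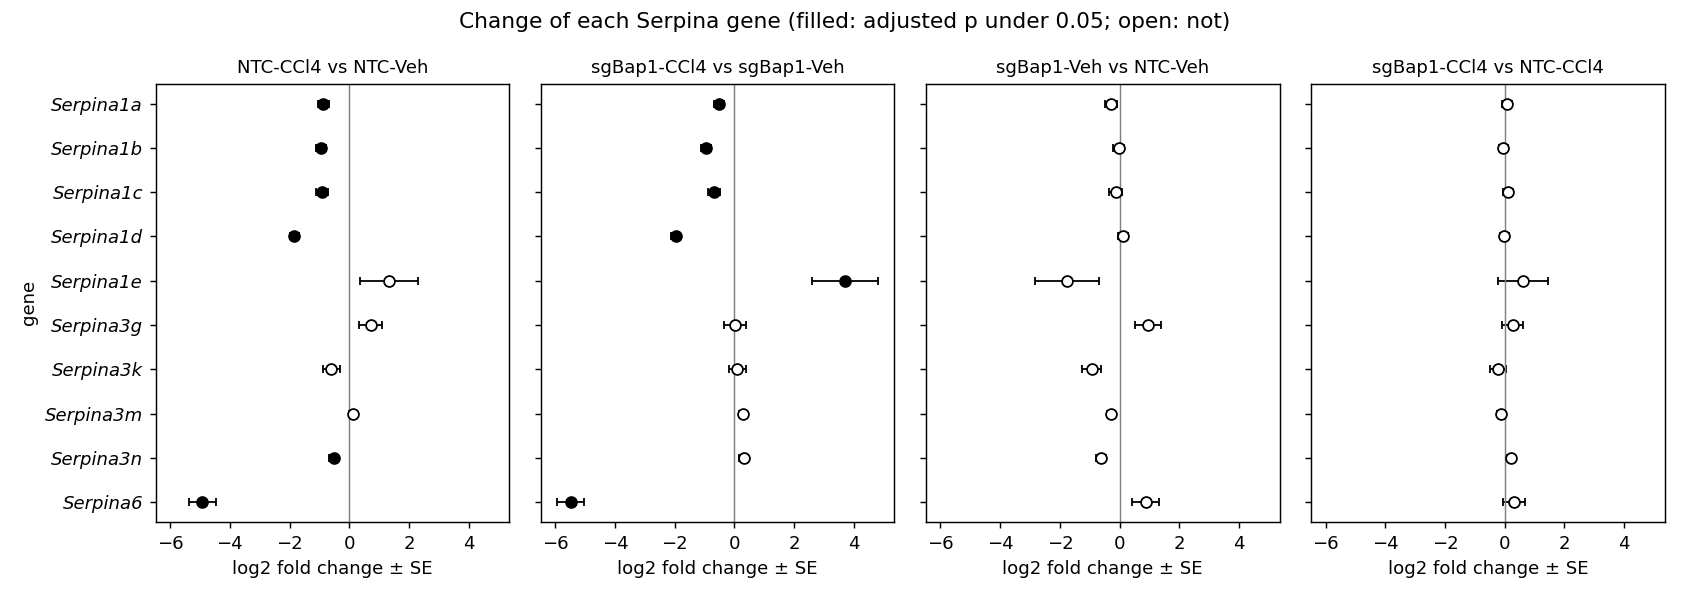
log2 fold change and its standard error for the 10 Serpina genes in 4 comparisons, with filled points for an adjusted p under 0.05. Filled points stand only in the 2 CCl4 comparisons, from -5.48 (Serpina6) to 3.71 (Serpina1e), and the 2 comparisons of sgBap1 with NTC hold open points only.

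Serpina6, the plasma carrier of glucocorticoids, was at 498 and 420 CPM in NTC-Veh livers and at 14.6, 18.0 and 12.8 in NTC-CCl4 livers. It was at 817 and 867 CPM in sgBap1-Veh livers and at 14.3, 9.89 and 32.4 in sgBap1-CCl4 livers. Every CCl4 liver lay far below every vehicle liver. The change was -4.92 in NTC mice (SE 0.45, adjusted p = 3.84e-05), a 30.3-fold lower level, and -5.48 in sgBap1 mice (SE 0.46, adjusted p = 2.25e-05), 44.7-fold lower. Without sgBap1-CCl4 replicate 3, the highest liver of its group, the second value was -6.13. Both sgBap1-Veh livers were above both NTC-Veh livers, but the difference of 0.88 (SE 0.45) had an adjusted p of 0.501. The 2 effects of CCl4 differed by -0.56 (SE 0.59, interaction, adjusted p = 0.819).

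Genes that respond to glucocorticoids or activate them moved in the same livers. Of 8 in a list of such genes, 6 fell and 0 rose with CCl4 in NTC mice, and 5 fell and 0 rose in sgBap1 mice. By library size alone the counts were 5 lower and 0 higher, and 3 lower and 2 higher. Over all 17015 tested genes, 26.6% fell in NTC mice and 28% in sgBap1 mice. Hsd11b1, which regenerates active glucocorticoid, changed by -1.71 (SE 0.18, adjusted p = 3.06e-05) and -2.21 (SE 0.18, adjusted p = 6.43e-06). Tat, tyrosine aminotransferase and a classical glucocorticoid-induced liver gene, changed by -1.69 (SE 0.27, adjusted p = 0.000525) and -1.40 (SE 0.27, adjusted p = 0.00156). In NTC mice Pck1, a gluconeogenic enzyme, changed by -1.58 (SE 0.23), and in sgBap1 mice Tsc22d3, another glucocorticoid-induced gene, by -1.32 (SE 0.16). None of these approached the change of Serpina6 in size. With sgBap1 under CCl4, 1 of the 8 rose, the clock gene Per1 (1.17, SE 0.09, adjusted p = 0.00287).

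Of the Serpina1 copies, Serpina1d fell most. It was at 4965 and 4377 CPM in the NTC-Veh livers, 5010 and 5054 in sgBap1-Veh, 1293, 1292 and 1320 in NTC-CCl4, and 1351, 1087 and 1442 in sgBap1-CCl4. The CCl4 livers lay within a narrow band well below the vehicle livers. The change was -1.84 (SE 0.15, adjusted p = 6.74e-06, 3.59-fold lower) in NTC mice and -1.96 (SE 0.15, adjusted p = 4.31e-06, 3.89-fold lower) in sgBap1 mice.

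Serpina1a, Serpina1b and Serpina1c fell by less. Serpina1b was at 8737 and 7362 CPM in the NTC-Veh livers, 7737 and 7980 in sgBap1-Veh, 4013, 4449 and 4027 in NTC-CCl4, and 4206, 3517 and 4402 in sgBap1-CCl4. Its change was -0.95 (SE 0.16, adjusted p = 0.000660) in NTC mice and -0.96 (SE 0.16, adjusted p = 0.000587) in sgBap1 mice, without overlap of livers in either. Serpina1a was at 6971 and 5541 CPM in the NTC-Veh livers, 4927 and 5320 in sgBap1-Veh, 3340, 3661 and 3266 in NTC-CCl4, and 3905, 2904 and 3940 in sgBap1-CCl4. All its CCl4 livers were below all its vehicle livers. It changed by -0.87 (SE 0.18, adjusted p = 0.00219) in NTC mice and by -0.52 (SE 0.18, adjusted p = 0.0317) in sgBap1 mice, where the call was lost without sgBap1-Veh replicate 1 (adjusted p = 0.0812), sgBap1-Veh replicate 2 (0.149) or NTC-CCl4 replicate 1 (0.0519), in a fit of those 5 livers alone (0.0788) and with scaling by library size alone (-0.04, adjusted p = 0.777). Serpina1c was at 7396 and 5921 CPM in the NTC-Veh livers, 5116 and 7018 in sgBap1-Veh, 3562, 3618 and 3351 in NTC-CCl4, and 3897, 3118 and 4320 in sgBap1-CCl4. Its livers did not overlap either. It changed by -0.92 (SE 0.20, adjusted p = 0.00267) in NTC mice and by -0.68 (SE 0.20, adjusted p = 0.0132) in sgBap1 mice, where the call was lost without sgBap1-Veh replicate 2 (-0.44, adjusted p = 0.159) and with scaling by library size alone (-0.21, adjusted p = 0.231).

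Serpina1e, the copy whose loop region differs most, went the other way and varied widely between mice. With vehicle it was at 607 and 285 CPM in NTC and at 18.1 and 246 in sgBap1 livers, a spread of more than 10-fold within the second group. It was at 958, 1672 and 748 CPM in NTC-CCl4 and at 1846, 914 and 2410 in sgBap1-CCl4, so that all 6 CCl4 livers were above all 4 vehicle livers. In sgBap1 mice it rose by 3.71 (SE 1.11, adjusted p = 0.0227), a value of 2.82 without sgBap1-Veh replicate 1, which holds the 18.1 CPM, and of 6.57 without replicate 2. That call was lost without a filter on low counts (adjusted p = 0.0593). In NTC mice the change was 1.34 (SE 0.98, adjusted p = 0.288), with 1.98 without NTC-Veh replicate 1 and 0.89 without NTC-Veh replicate 2. The difference between the 2 effects was 2.38 (SE 1.35, adjusted p = 0.614), with 1.48 without sgBap1-Veh replicate 1 and 5.24 without sgBap1-Veh replicate 2.

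The split of the summed Serpina1 counts between the copies shifted accordingly. Serpina1d held 17.3% to 22.0% of them in the 4 vehicle livers and 8.73% to 10.4% in the 6 CCl4 livers. Serpina1e held 0.0794% to 2.12% and 5.89% to 14.6%. Over both genotypes the mean share of Serpina1d was 19.4% ± 1.97 (SD, n = 4) with vehicle and 9.34% ± 0.664 (SD, n = 6) with CCl4, and that of Serpina1e was 1.09% ± 0.839 and 9.87% ± 3.35. Each of these differences gave p = 0.00952 in the two-sided exact permutation test, the smallest that 4 against 6 livers allow. After Benjamini-Hochberg adjustment over 25 share tests this exact p became 0.119, so neither passed the correction. Most of the 25 tests compare groups of 2 or 3 livers and cannot give an exact p below 0.1. The correction could therefore hardly be passed, and not passing it decides little. The share of Serpina1a was 2.55 percentage points higher with CCl4 (exact permutation p = 0.0190, adjusted 0.159), that of Serpina1b 2.18 points lower (difference -2.18, exact p = 0.114) and that of Serpina1c 0.936 points higher (exact p = 0.4). Within 1 genotype the direction was the same for Serpina1d, at -8.31 points in NTC and -11.8 in sgBap1 mice, and for Serpina1e, at means of 1.67% and 8.18% in NTC and 0.519% and 11.6% in sgBap1 mice, but 2 against 3 livers cannot give an exact p below 0.2. Between genotypes no share could pass, since 2 against 2 livers cannot give an exact permutation p below 0.333, nor 3 against 3 below 0.1. Under vehicle, Serpina1a held 20.8% and 21.6% in sgBap1 livers and 23.6% and 24.3% in NTC livers, Serpina1d 19.7% and 22.0% against 17.3% and 18.6%, and Serpina1e 0.0794% and 0.958% against 1.21% and 2.12%. The groups did not overlap for these 3 copies, each at the smallest exact p of 0.333.

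**Figure D4:**
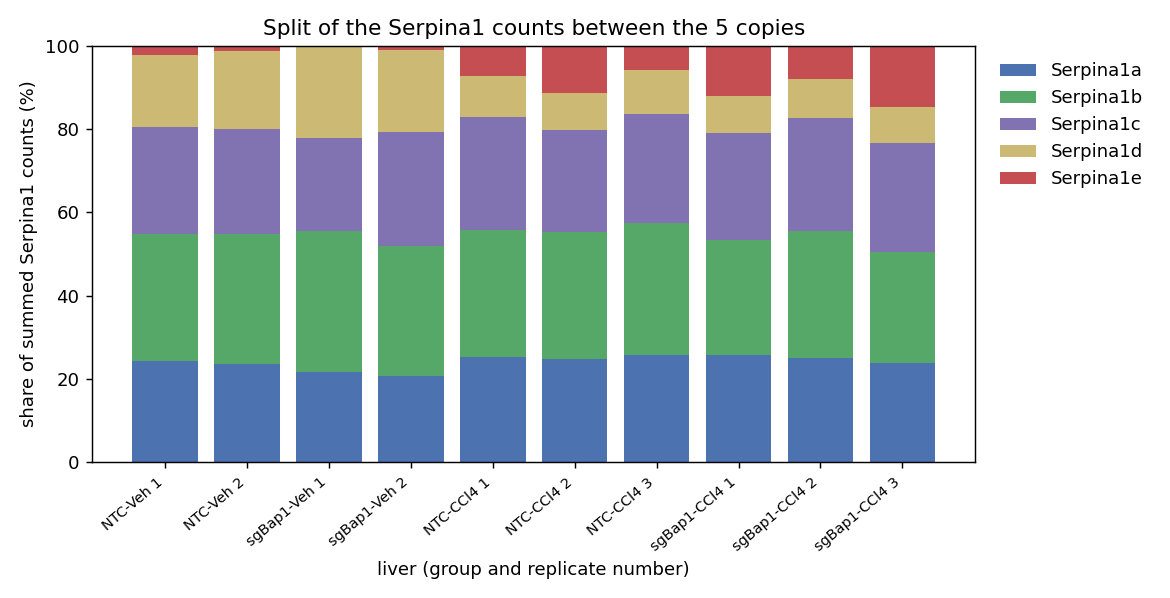
Share of each copy in the summed Serpina1a to Serpina1e estimated counts, one stacked bar per liver, in percent. Serpina1d takes 17.3% to 22.0% of the bar in vehicle livers and 8.73% to 10.4% in CCl4 livers, and Serpina1e grows from at most 2.12% to at least 5.89%.

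Summed over the 5 copies, which removes the division of shared reads among them, Serpina1 fell with CCl4 in NTC mice (-0.95, SE 0.21, adjusted p = 0.00335, 1.93-fold lower) and in sgBap1 mice (-0.75, SE 0.21, adjusted p = 0.0115, 1.68-fold lower). It differed between sgBap1 and NTC mice by -0.11 (SE 0.23, adjusted p = 0.922) under vehicle and by 0.09 (SE 0.19, adjusted p = 0.870) under CCl4. As a share of all counts, without TMM factors, the sum was at 2.25% and 2.00% in NTC-Veh and at 1.47% to 1.65% in NTC-CCl4 livers. In sgBap1 mice the share was 1.91% and 2.07% with vehicle and 1.42% to 1.79% with CCl4. These shares lie closer together than the TMM-scaled values, and the sum was not tested by library size alone.

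The antichymotrypsin-like genes behaved less uniformly. Serpina3k, the most abundant of them, was at 12878 and 8686 CPM in the NTC-Veh livers, 4131 and 7173 in sgBap1-Veh, 6956, 7568 and 6801 in NTC-CCl4, and 6390, 4478 and 7330 in sgBap1-CCl4. The NTC-Veh livers were the highest of all. The change with CCl4 was -0.60 (SE 0.28, adjusted p = 0.0955) in NTC mice, called by DESeq2's Wald test (adjusted p = 0.0372) and by a fit of those 5 livers alone (edgeR, adjusted p = 0.0233), and 0.10 (SE 0.28, adjusted p = 0.779) in sgBap1 mice. Its sgBap1-Veh livers were below both NTC-Veh livers by 0.93 on the log2 scale (log2 fold change -0.93, SE 0.31, adjusted p = 0.25).

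Serpina3n, an inhibitor known for its rise in inflamed tissue, was at 979 and 914 CPM in NTC-Veh and at 678, 593 and 700 in NTC-CCl4, and it fell by 0.53 on the log2 scale (log2 fold change -0.53, SE 0.14, adjusted p = 0.0107). It was at 524 and 702 CPM in sgBap1-Veh and at 708, 807 and 766 in sgBap1-CCl4, a change of 0.31 (SE 0.15, adjusted p = 0.0955). The livers did not overlap in either comparison, and lay in opposite directions. The difference of the 2 effects was 0.84 (SE 0.21, unadjusted p = 0.00225, adjusted p = 0.157). DESeq2's Wald test called it (0.83, adjusted p = 0.00484), as 1 of 424 genes called among 17015. Which of the 2 CCl4 changes was called depended on the scaling: by library size alone the change was -0.05 (adjusted p = 0.777) in NTC mice and 0.80 (adjusted p = 0.000796) in sgBap1 mice. The NTC call was also lost without NTC-Veh replicate 1 (adjusted p = 0.0679), and without sgBap1-Veh replicate 2 the sgBap1 change passed (0.54, adjusted p = 0.0257).

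Serpina3m, next to Serpina3k in the cluster, varied little. It was at 596 and 532 CPM in the NTC-Veh livers, 418 and 504 in sgBap1-Veh, 658, 567 and 640 in NTC-CCl4, and 584, 508 and 605 in sgBap1-CCl4. Its changes with CCl4 were 0.14 (SE 0.13, adjusted p = 0.405) in NTC mice and 0.30 (SE 0.13, adjusted p = 0.0841) in sgBap1 mice. The second was called without sgBap1-CCl4 replicate 2 (0.37, adjusted p = 0.0336), and by library size alone both were called (0.62 and 0.77, adjusted p = 0.000719 and 0.000151). Serpina3g, which is known from activated lymphocytes and myeloid cells, was the rarest, at 13.5 and 6.40 CPM in the NTC-Veh livers, 17.0 and 21.6 in sgBap1-Veh, 11.8, 12.2 and 25.1 in NTC-CCl4, and 17.6, 20.9 and 20.2 in sgBap1-CCl4. Its change was 0.71 (SE 0.40, adjusted p = 0.165) with CCl4 in NTC mice, called by library size alone (1.21, adjusted p = 0.0274) and without NTC-Veh replicate 1 (1.35, adjusted p = 0.0447), and 0.02 (SE 0.38, adjusted p = 0.969) in sgBap1 mice. Summed, the 4 Serpina3 genes changed by -0.55 (SE 0.26, adjusted p = 0.0963) and 0.14 (SE 0.26, adjusted p = 0.679).

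Between sgBap1 and NTC mice, 0 of the 10 genes passed under vehicle, where 0.406% of all tested genes did. Livers did not overlap for 8 of the 10, 5 lower and 3 higher, against 40.9% of all tested genes. Serpina3n (-0.63, SE 0.16, adjusted p = 0.128) and Serpina3k had an unadjusted p under 0.05, and DESeq2's Wald test called both (adjusted p = 0.00567 and 0.0376). DESeq2 called 562 of all 17015 tested genes here, against 69 with edgeR. In Serpina3n and Serpina3k each sgBap1-Veh liver lay below each NTC-Veh liver. Serpina3g was higher without overlap (0.95, SE 0.43, adjusted p = 0.422), by 1.59 without NTC-Veh replicate 1 and by 0.51 without NTC-Veh replicate 2. Macrophage markers, 8 genes summed, were at 180 to 265 CPM in the NTC and 362 to 508 in the sgBap1 livers, and 1 of the 8, Csf1r, rose (1.06, SE 0.18, adjusted p = 0.0487). T and NK cell markers, 7 genes summed, were at 2.30 to 4.87 and 7.60 to 7.99 CPM, with 0 of 7 called. Their part in the level of Serpina3g was not tested.

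Under CCl4, 0 of the 10 genes passed between genotypes and 0 had an unadjusted p under 0.05, where 0.329% of all tested genes passed. DESeq2's Wald test called 0 of the 10 and 509 of all 17015 tested genes. Differences ran from -0.23 (Serpina3k, SE 0.25) to 0.61 (Serpina1e, SE 0.84). Of the 10, 1 did not overlap between the groups, against 20.3% of all tested genes. This was Serpina3n, higher in sgBap1-CCl4 by 0.21 (SE 0.13, adjusted p = 0.502). For the interaction, 0 of the 10 and 0% of all genes passed with edgeR. DESeq2 called 1 of the 10, Serpina3n, and 424 of all 17015 tested genes. The CCl4 comparisons and the genotype comparisons share their groups and are not independent of one another.

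Of 19 other Serpina genes in the table, 11 could be tested. With CCl4, 4 rose and 0 fell in NTC mice, and 5 rose and 0 fell in sgBap1 mice. Over all tested genes 27.4% rose in NTC mice and 29% in sgBap1 mice. Serpina3d-ps, Serpina3i and Serpina5 were among the risers in both, but they were very rare. Their group means were at most 0.380, 0.678 and 0.328 CPM, where 3 counts correspond to 0.0511 to 0.112 CPM. Serpina7 encodes thyroxine-binding globulin, the gene that gives the TBG promoter its name, and like Serpina6 it is a hormone carrier. In NTC mice it was at 55.5 and 70.3 CPM with vehicle and 237 to 247 with CCl4. In sgBap1 mice it was at 46.0 and 38.7 CPM with vehicle and 71.9 to 241 with CCl4. It rose by 1.94 (SE 0.43, adjusted p = 0.00534) and 1.86 (SE 0.43, adjusted p = 0.00621), opposite to Serpina6, and the second value was 2.20 without sgBap1-CCl4 replicate 2. The pseudogene Serpina4-ps1 rose in sgBap1 mice (3.29, SE 1.20, adjusted p = 0.0471), a call lost without sgBap1-CCl4 replicate 2 (3.64, adjusted p = 0.0653).

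Among 12 serpins of other clades, 4 rose and 6 fell with CCl4 in NTC mice. In sgBap1 mice 4 rose and 7 fell (5 and 4, and 4 and 5, by library size alone). The shares over all tested genes were 27.4% higher and 26.6% lower in NTC mice, and 29% and 28% in sgBap1 mice. Serpinh1, the collagen chaperone HSP47, rose by 2.84 (SE 0.37) and 2.97 (SE 0.37). Serpinb1a, an intracellular inhibitor of neutrophil proteases, changed by -1.82 (SE 0.29) and -2.17 (SE 0.28). Of the proteases these inhibitors meet, 7 of 10 could be tested, and 4 rose and 1 fell in NTC mice against 3 and 1 in sgBap1 mice (5 and 0 in both by library size alone). Prtn3, proteinase 3, rose by 4.22 (SE 0.51) and 4.51 (SE 0.57) to at most 17.1 CPM, while Elane, the elastase that alpha-1-antitrypsin inhibits, stayed at or below 0.208 CPM and Ctsg, cathepsin G, at or below 0.0781.

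The fall of the Serpina1 copies stood beside that of other liver products. Of 12 secreted plasma proteins, 9 fell and 0 rose with CCl4 in NTC mice and 7 fell and 0 rose in sgBap1 mice, with Apoa2 at -2.21 (SE 0.25) and -2.37 (SE 0.25) and Apoh at -1.61 (SE 0.19) and -1.55 (SE 0.19). By library size alone 5 fell and 1 rose, and 4 fell and 2 rose. Of all tested genes 26.6% fell and 27.4% rose in NTC mice, and 28% fell and 29% rose in sgBap1 mice. Of 6 hepatocyte markers, 5 and 3 fell and 0 rose (3 and 3 fell, and 0 and 1 rose, by library size alone), and their summed level was 98208 to 131310 CPM in vehicle livers and 60822 to 77515 in CCl4 livers. Markers of macrophages (811 to 1215 CPM summed in CCl4 livers, 180 to 508 in vehicle livers), stellate cells (180 to 280 in 5 CCl4 livers, 596 in sgBap1-CCl4 replicate 2, 35.9 to 52.4 in vehicle livers) and neutrophils (16.3 to 24.1 and 3.38 to 6.57) were higher in the same livers. Among the 8 macrophage markers, 5 rose and 0 fell with CCl4 in NTC mice, and 4 rose and 2 fell in sgBap1 mice. By library size alone the counts were 6 and 0, and 5 and 1. Marco rose by 4.08 (SE 0.72) in NTC and 2.76 (SE 0.67) in sgBap1 mice. Cd68 rose by 3.27 (SE 0.26) and 2.48 (SE 0.25), and Lyz2 by 2.96 (SE 0.21) and 2.05 (SE 0.20). Clec4f was at 170 and 116 CPM in sgBap1-Veh livers and at 47.1 to 65.4 in sgBap1-CCl4 livers. In NTC mice it was at 88.8 and 61.5 CPM with vehicle and at 51.0 to 78.7 with CCl4, with livers overlapping. The part of these cell types in the changes of the Serpina genes was not tested.

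Acute-phase genes did not move as a block. Of 14, 4 rose and 2 fell in NTC mice, and 5 rose and 1 fell in sgBap1 mice (10 and 1, and 8 and 1, by library size alone). Over all 17015 tested genes, for this list and the 2 below, 27.4% rose and 26.6% fell in NTC mice. In sgBap1 mice 29% rose and 28% fell. By library size alone 8500 of all tested genes rose in NTC mice and 8614 in sgBap1 mice. Lcn2, lipocalin 2, rose by 3.37 (SE 0.22) and 2.99 (SE 0.22), and Saa3, a serum amyloid, by 2.73 (SE 0.44) and 1.11 (SE 0.40). Saa1 changed by -1.59 (SE 0.55, adjusted p = 0.0387) in NTC mice, a call lost by library size alone, and Crp, C-reactive protein, by -0.98 (SE 0.18) in sgBap1 mice. Of 13 liver factors and cytokine signalling genes, 3 rose and 5 fell in NTC mice, and 6 rose and 3 fell in sgBap1 mice (5 and 4, and 8 and 2, by library size alone). Osmr, the oncostatin M receptor, rose by 2.51 (SE 0.25) and 2.42 (SE 0.25), Socs3, a feedback inhibitor of STAT3, by 1.71 (SE 0.27) and 2.29 (SE 0.28), and Cebpa, a hepatocyte C/EBP factor, changed by -1.56 (SE 0.18) and -1.92 (SE 0.19). With sgBap1 under CCl4, Cebpd rose (1.16, SE 0.19, adjusted p = 0.0392). Of 11 genes of the secretory pathway, through which secreted serpins leave the cell, 6 rose and 1 fell in NTC mice. In sgBap1 mice 7 rose and 1 fell (9 and 0 in both genotypes by library size alone). The chaperone Hspa5 changed by 1.31 (SE 0.18) and 1.47 (SE 0.18), and the folding sensor Uggt1 by 0.86 (SE 0.12) and 0.95 (SE 0.12).

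Likeness of pattern was measured as the root mean square difference of centred log2 CPM over the 10 livers, against 12018 genes whose mean reached 100 counts. The gene most like Serpina1a was Alb, albumin (0.0618). Those most like Serpina1b, Serpina1c and Serpina1d were Stard10 (0.0522), St3gal3 (0.0856) and Fah (0.0774). Serpina3k was nearest to Ahsg, fetuin-A (0.187), Serpina3m to Ccdc25 (0.0296), Serpina3n to Aen (0.137) and Serpina3g to Siglece (0.258). Serpina6 and Serpina1e had the largest differences from their nearest genes, Upp2 at 0.421 and Dnaic1 at 0.714. The measure is not scaled to how much a gene itself varies, so its size cannot be compared between steady and strongly changing genes. Within the family, Serpina1a and Serpina1c were nearest (0.110), and Serpina1e and Serpina6 farthest (4.29). Serpina1a and Serpina1c are also the pair that shares most sequence, with 69.4% of the 50-base stretches of Serpina1c present in Serpina1a. Salmon divides such reads by estimate, so the likeness of their counts is not independent of that division.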

How the data were processed

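RNA of the right liver lobe was sequenced after a stranded mRNA kit, as paired reads of 50 bases. The authors aligned reads to GRCm38 with STAR 2.7.6a and quantified genes with Salmon 1.4.0, and the deposited table holds Salmon's estimated counts (expected counts) per gene symbol, without normalization, of which 9.22% are not whole. Salmon's strand setting is not given in the sources used here.

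After rounding, counts were fitted in edgeR 4.0.16 (R 4.3.3). The 17015 genes kept by filterByExpr were scaled by TMM and fitted in 1 model of the 4 groups with glmQLFit (robust), and comparisons were tested two-sided by its quasi-likelihood test, with p-values adjusted by Benjamini-Hochberg over all tested genes and a threshold of 0.05. CPM are TMM-scaled. Each sample is a separate liver, 2 per vehicle group and 3 per CCl4 group, and nothing further is stated about the replicates. The smallest estimated count of Serpina3g, the rarest of the 10, was 231 in a liver. Serpina1 shares were compared by exact permutation tests (SciPy 1.17.1). Coding sequences (GENCODE vM21, GRCm38) were aligned with mafft 7.526, and promoters are RefSeq's. Alternatives were DESeq2 1.42.0 size factors and Wald test, limma-voom (limma 3.58.1), library size alone, other filters, edgeR 3 quasi-likelihood, only the 2 groups compared, the replicate number as a block, copies summed, and each liver left out. Leaving out sgBap1-CCl4 replicate 2 for the related lists was chosen after seeing the data.

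The genes, lists and tests were chosen with earlier results of these data known. Named are all 10 genes and, per related list and comparison, up to 3 called genes of largest change with a mean of at least 100 counts. Not every gene that this rule names is reported here. Elane, Ctsg, Adipoq, Plin1 and Cfd were added after their values were seen, and Clec4f was also named outside this rule.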

Additional observations from a re-analysis of the deposited data

How the results depend on the processing

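Of the alternatives other than leaving out a liver, 427 of the single-gene log2 fold changes kept their direction and side of the threshold, 9 gained a call, 7 lost one and 2 reversed. Fewer members were called with copies summed, 2 of 3 summed units for CCl4 in NTC mice and 2 in sgBap1 mice, since the summed table holds fewer of them. DESeq2's Wald test called 2 of the 10 with sgBap1 under vehicle and 1 for the interaction, against 0 with edgeR. It called 562 and 424 of all 17015 tested genes, against 69 and 0 with edgeR. The cause was not tested. The replicate numbers did not pair the livers: same-numbered NTC-CCl4 and sgBap1-CCl4 livers had correlations of their deviations of 0.0107, 0.0210 and -0.149. With the replicate block, 6 and 4 of the 10 were called for CCl4 in NTC and in sgBap1 mice, where Serpina1a (adjusted p = 0.0535) and Serpina1e (0.0546) were lost, and 0 elsewhere, and the change of Serpina3g in sgBap1 mice was -0.16. Without the low-count filter the interaction of Serpina1b was 0.014.

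With each CCl4 liver left out, the number called stayed at 6 for CCl4 in NTC mice, ran from 5 to 7 in sgBap1 mice and was 0 in the other comparisons. Leaving out NTC-Veh replicate 1 changed which genes were called for CCl4 in NTC mice. Serpina3n was then at -0.48 and Serpina3g at 1.35, so neither the set nor its direction was fixed. A vehicle group left with 1 liver was assumed to vary like the others. Small changes crossed 0 among the fits with any liver left out, vehicle or CCl4. With CCl4 in sgBap1 mice, Serpina3g ran from -0.14 to 0.20 and Serpina3k from -0.24 to 0.55. With sgBap1 under vehicle, Serpina1b ran from -0.15 to 0.091 and Serpina1c from -0.38 to 0.072. With sgBap1 under CCl4, Serpina1a ran from -0.016 to 0.20, Serpina1b from -0.12 to 0.048, Serpina1c from -0.010 to 0.23, Serpina1d from -0.10 to 0.10 and Serpina6 from -0.33 to 0.62. The interaction of Serpina1b ran from -0.13 to 0.11. The difference in Serpina1b share ran from -2.61 (without NTC-CCl4 replicate 3, exact permutation p = 0.0476) to -1.45 percentage points.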
